A study of Mus musculus with 90 samples.

Results

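The transcripts of 10 genes of the BCL2 family (Bcl2l10, Mcl1, Bcl2l1, Bcl2, Bax, Bak1, Bid, Bad, Bcl2l11 and Bbc3) were followed in single mouse oocytes and embryos. The genes were taken by name, as commonly studied members of the family, when earlier results of these data were known. All 10 were among the 24422 genes of the count table and among the 16511 that passed the filter on low values. The mice were of the CD-1 strain. Sexually mature females, either WT or Plag1 knockout, were superovulated with 5 IU of pregnant mare serum gonadotropin and then 5 IU of hCG. MII oocytes of unmated females were picked 21 to 23 h after hCG without culture, and embryos of females mated with WT studs were cultured in KSOM and picked at 45 to 47 h (2c) or 71 to 73 h (8c) after fertilization. The embryos of knockout females are called matPlag1KO: their maternal Plag1 allele is the knockout allele in every cell and the allele of the WT sire is intact, so they are heterozygous and lack both the maternal supply and an intact maternal allele. Oocytes of knockout females are grouped under the same name here. No other allele or agent differed between the groups, all of which were superovulated.

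Each library held the 5′ ends of the transcripts of 1 oocyte or embryo, and the libraries were made in 2 pools, A and B, which both held every stage and genotype. Of 90 libraries, 78 had enough signal to be kept: 16 WT and 14 matPlag1KO oocytes, 11 and 11 embryos at 2c, and 15 and 11 at 8c. The kept libraries held 92475 to 2502421 gene counts, with group medians from 148473 in WT 2c embryos to 649899 in matPlag1KO oocytes. At the median depth of WT 2c embryos, the shallowest group, a single count was worth 5.59 CPM (counts scaled to the total of the library), so a member at a few CPM was seen as 0 in many of those libraries. Each group came from fewer females than libraries and the labels do not tie libraries to females, so embryos may share a mother and the p-values below measure only the spread between libraries.

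The proteins of the BCL2 family decide whether the outer membrane of the mitochondrion stays closed. BCL2, BCL2L1 (BCL-XL) and MCL1 hold it closed, and BAX and BAK1 form pores that release cytochrome c and start apoptosis. The BH3-only proteins BID, BAD, BCL2L11 (BIM) and BBC3 (PUMA) free or activate the pore formers. BCL2L10 is not assigned to either side here. After fertilization the RNA stored in the oocyte is degraded and, in the mouse, the embryo's own genome takes over at the 2c stage, so a member can be supplied by the mother, by the embryo or by both.

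The markers of the labelled stages were checked first. All 8 oocyte markers (such as Gdf9 and Zp3) had counts in every group, and their summed level had a median of 8375 CPM in WT oocytes and 25089 CPM in those of knockout females, then 3507 and 5399 CPM at 2c, then 81.7 and 138 CPM at 8c. The WT oocytes of pool B stood apart, with 6104 to 8518 CPM of oocyte markers against 6405 to 34985 CPM (median 27137) in the WT oocytes of pool A. The 7 markers of the 2c stage (such as Zscan4c) summed to medians of 207 and 507 CPM at 2c and to medians of at most 3.48 CPM at the other stages. The 7 markers of the 8c stage (such as Pou5f1 and Cdx2) summed to a median of 1760 CPM in WT 8c embryos, above the 731 CPM of WT oocytes, but in matPlag1KO to 608 CPM at 8c against 602 CPM in oocytes, so they did not set that group apart from oocytes. Their part in the results was not tested. The 13 markers of cumulus cells, which were removed with hyaluronidase, had 4 to 8 genes at 0 in each group, with Ptx3 at 0 in all. They summed to medians from 99.2 CPM in WT oocytes to 576 CPM in WT 8c embryos. Of these, Nr5a2, which embryos also express, alone had medians of 90.4 and 563 CPM, and 105 CPM in oocytes of knockout females. Without it the other 12 summed to a median of at most 35.9 CPM in any group, and to at most 112 CPM in a library. The source of Nr5a2 in oocytes was not tested. Plag1 itself had 326 counts in WT oocytes and 4 in those of knockout females, a log2 fold change of -5.64 ± 0.65 (SE; edgeR, adjusted p = 1.48e-10). At 2c it had 1 count in the WT libraries and 91 in those labelled matPlag1KO (5.59 ± 0.94, adjusted p = 0.000127), where the sire's allele is intact. At 8c the 10 and 6 counts gave a difference of -0.07 ± 0.89 (adjusted p = 1.00).

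The start regions of 4 members that rose during these stages are shown because the counted reads mark the 5′ ends of transcripts. The counts are given per gene, so they do not show which start site was used. They are the 250 bases before a RefSeq start site (GRCm38.p6), 5′ to 3′ on the strand of the gene, with GC boxes (GGGCGG) and CCAAT boxes (CCAAT), on either strand, in capitals. Mcl1 (chr3:95658471-95658720, plus strand) and Bid (chr6:120916825-120917074, minus strand) rose from MII to 2c, and Bax (chr7:45466899-45467148, minus strand) and Bad (chr19:6941611-6941860, plus strand, the first of its 2 start sites) rose from 2c to 8c.
Mcl1: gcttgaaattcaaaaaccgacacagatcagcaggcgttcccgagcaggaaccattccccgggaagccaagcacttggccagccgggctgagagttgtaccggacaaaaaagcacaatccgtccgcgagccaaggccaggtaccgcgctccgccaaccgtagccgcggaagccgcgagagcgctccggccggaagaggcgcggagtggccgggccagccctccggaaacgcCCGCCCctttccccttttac
Bid: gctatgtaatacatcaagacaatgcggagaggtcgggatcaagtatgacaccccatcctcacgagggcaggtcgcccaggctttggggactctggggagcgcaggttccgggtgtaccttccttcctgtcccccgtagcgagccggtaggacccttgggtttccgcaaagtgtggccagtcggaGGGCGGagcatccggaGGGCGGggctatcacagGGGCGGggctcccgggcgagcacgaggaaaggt
Bax: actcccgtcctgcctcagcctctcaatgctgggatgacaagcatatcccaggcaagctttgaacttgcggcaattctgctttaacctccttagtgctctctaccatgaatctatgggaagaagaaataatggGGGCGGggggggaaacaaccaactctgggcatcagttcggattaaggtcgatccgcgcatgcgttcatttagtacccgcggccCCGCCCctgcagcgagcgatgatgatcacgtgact
Bad: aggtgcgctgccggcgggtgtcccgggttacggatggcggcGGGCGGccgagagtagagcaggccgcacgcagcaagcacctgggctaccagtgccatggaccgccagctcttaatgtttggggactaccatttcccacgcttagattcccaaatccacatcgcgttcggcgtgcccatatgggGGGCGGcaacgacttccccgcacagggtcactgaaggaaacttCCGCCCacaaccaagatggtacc

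The 4 regions shown held at least 1 GC box: 1 before Mcl1, 3 before Bid, 2 before Bax and 3 before Bad, and none held a CCAAT box or a TATA box (TATAAA). Over the 9 members with an entry in the table, all but Bcl2l10, a GC box stood before 10 of 15 start sites, against 32.7% of 32807 start sites of all genes in windows of the same length. A CCAAT box was found before 4 of the 15 (33.8% of all), the letters TATAAA before 0 (12.4% of all) and CACGTG before 2 (6.0% of all). The second start site of Bad (chr19:6942312-6942561), not shown, had 0 GC boxes and 1 CCAAT box. Overlapping GC boxes were counted separately, and matches of different motifs were searched independently. The 4 regions shown held more CpG than the median of 6 over all start sites: 26 of these dinucleotides stood before Mcl1, 18 before Bid, 14 before Bax and 21 before Bad. Such letters were not particular to members that rose. Bcl2, which had few counts, had 36 CpG and 7 GC boxes, and 1 start site of Bbc3 had 37 and 7. The start sites of Bcl2l1 had 0, 11 and 12 CpG and that of Bak1 had 8, all without a GC box. A link between these letters and the rise was not tested. A match describes the letters only.

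Bcl2l10, a member that is known for its expression in oocytes, lies on chr9:75195565-75199447 (mm9) and overlaps no other gene of the table. It was read at 4090 to 10554 CPM (median 6393) in the 16 WT oocytes and at 3288 to 7365 CPM (median 5893) in the 14 oocytes of knockout females. At 2c the libraries ranged from 292 to 3078 CPM (median 860) in WT and from 485 to 6387 CPM (median 1254) in matPlag1KO. At 8c they ranged from 0 to 65.0 CPM (median 7.15) and from 2.40 to 118 CPM (median 12.996). Each WT 2c embryo was below every WT oocyte, and each WT 8c embryo below every WT 2c embryo. In matPlag1KO, 9 of 11 embryos at 2c were below every oocyte on the CPM scale, and all 11 were when scaled to spike-in RNA.

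To compare stages, counts were scaled to the spike-in RNA that was added in equal amount to each library. A difference then refers to captured RNA per embryo and not to a share of it. Such a value does not tell a change in the number of cells apart from a change in RNA per cell. The libraries were primed with oligo(dT), so a change in the poly(A) tail cannot be told apart from a change in amount either. On this scale most genes fell after fertilization: over the 16511 genes, the median log2 fold change between MII and 2c was -1.46 in WT and -1.42 in matPlag1KO, and between 2c and 8c it was 0.53 and 0.30. On the second scale, TMM, which sets most genes to no change, the medians were -0.03, 0.14, -0.12 and -0.31. Many stage results are therefore given on both. A stage difference with no scale named is scaled to spike-in RNA. Bcl2l10 fell by 3.99 ± 0.47 (SE, log2) from MII to 2c in WT (edgeR, adjusted p = 1.16e-11; TMM scale -2.48) and by 3.14 ± 0.46 in matPlag1KO (adjusted p = 8.71e-09; TMM scale -1.52). Between 2c and 8c it fell by a further 5.21 ± 0.46 in WT and 5.81 ± 0.54 in matPlag1KO (adjusted p = 9.57e-17 and 1.06e-15). In WT its fall from MII to 2c exceeded the median fall of all genes by 2.54 on the log2 scale.

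**Figure D1:**
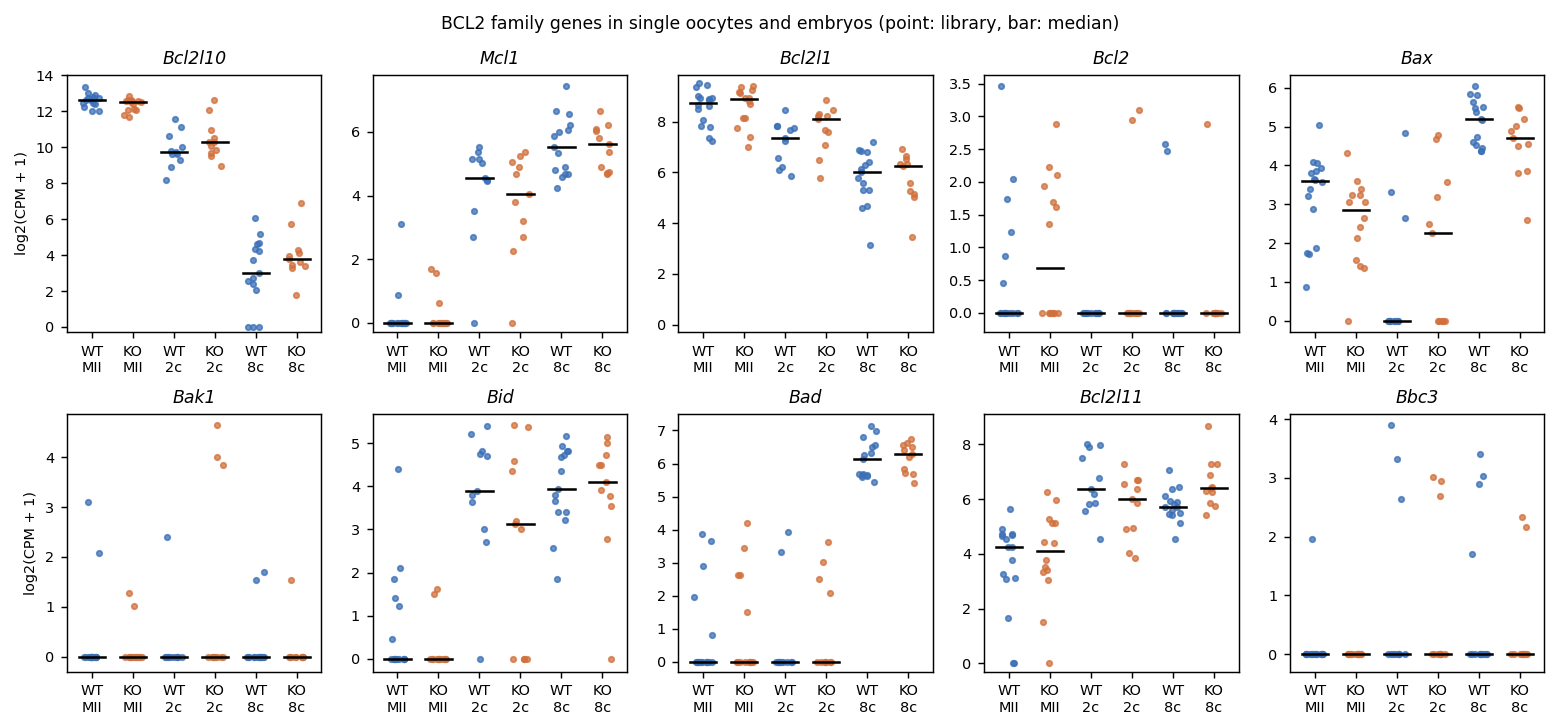
Level of each of the 10 genes in each kept library, as log2(CPM + 1), by stage and genotype (blue, WT, and orange, matPlag1KO; bar, median of the group). The median of Bcl2l10 in WT went from 6393 CPM at MII to 860 at 2c and 7.15 at 8c, whereas that of Mcl1 went from 0 to 22.3 and 45.1 and that of Bad from 0 at MII and 2c to 69.0 at 8c.

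Mcl1 (chr3:95462643-95467101, mm9), an antiapoptotic protein with a short half-life, had the opposite course. Only 3 counts were found over the 16 WT oocytes and 3 over the 14 matPlag1KO oocytes, in 2 and 3 libraries. At 2c, 10 of 11 WT libraries held it, at 0 to 45.0 CPM (median 22.3), and 10 of 11 matPlag1KO libraries, at 0 to 40.2 CPM (median 15.4). At 8c all libraries held it, at 17.8 to 172 CPM (median 45.1) in WT and 24.8 to 101 CPM (median 48.7) in matPlag1KO, and each 8c library was above every oocyte of its genotype.

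From MII to 2c Mcl1 rose by 4.00 ± 0.58 in WT (adjusted p = 6.92e-09; TMM scale 5.34) and by 3.69 ± 0.60 in matPlag1KO (adjusted p = 1.65e-07; TMM scale 5.14). Because of the 3 counts in oocytes, the ratio of pooled counts per spike-in count was 24.7 in WT, with a counting interval (95%, counting error only) of 7.97 to 124, and 19.6 (6.3 to 98.7) in matPlag1KO. It rose again from 2c to 8c, by 2.10 ± 0.47 in WT and 1.98 ± 0.50 in matPlag1KO (adjusted p = 0.000136 and 0.000565; TMM scale 1.23 and 1.38). This later rise did not pass the threshold in pool A alone (1.58 in WT, adjusted p = 0.133, and 1.81 in matPlag1KO, adjusted p = 0.07096).

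Bcl2l1 (chr2:152584468-152657464, mm9; it overlaps Cox4i2 on the other strand), which encodes BCL-XL, fell like Bcl2l10 but less. Oocytes had medians of 429 CPM (WT) and 467 CPM (matPlag1KO), 2c embryos of 164 and 271 CPM, and 8c embryos of 63.4 and 74.7 CPM. The extremes were 739 CPM in a WT oocyte and 7.81 CPM in a WT 8c embryo. It fell from MII to 2c by 2.96 ± 0.46 in WT and 2.67 ± 0.45 in matPlag1KO (adjusted p = 3.77e-08 and 4.34e-07; TMM scale -1.32 and -0.82). The fall in matPlag1KO was not called with median-ratio factors (-0.53, adjusted p = 0.159). Between 2c and 8c the difference in WT was -0.39 ± 0.41 scaled to spike-in RNA (adjusted p = 0.441) and -1.29 on the TMM scale (adjusted p = 0.000388), so the call depended on the scale. In matPlag1KO it fell by 1.10 ± 0.45 (adjusted p = 0.0359; TMM scale -1.89), and this call was lost in either pool alone (adjusted p = 0.124 and 0.216) and when no library was left out (adjusted p = 0.0849).

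Bcl2 (chr1:108434753-108610867, mm9; it overlaps the microRNA gene Mir3473f, which had 0 counts), the founding member of the family, was close to the limit of detection. Among oocytes, 6 of 16 WT libraries held 8 counts in all and 7 of 14 matPlag1KO libraries 13, while the totals were 0 and 3 at 2c and 4 and 2 at 8c. For the 8 against 0 counts in WT, the counting interval of the fall from MII to 2c started at 1.10-fold per spike-in count and at 0.340-fold, which is no fall, on the CPM scale. The model gave -2.35 ± 0.77 (adjusted p = 0.00889), but the call was lost on the TMM scale (-2.23, adjusted p = 0.143) and in either pool alone. In matPlag1KO it was called only from MII to 8c (-1.79 ± 0.83, adjusted p = 0.04999), where the TMM scale gave -1.08 (adjusted p = 0.298).

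**Figure D2:**
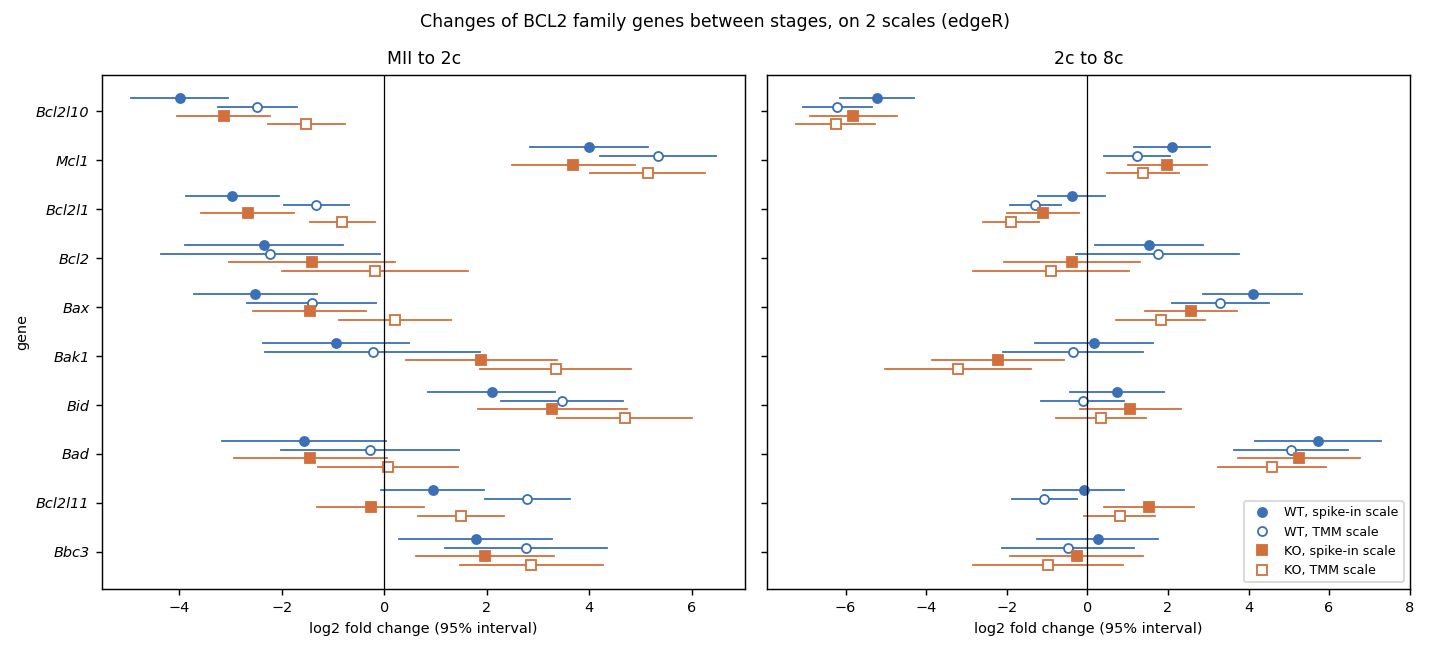
Log2 fold change (x axis) of each gene between MII and 2c and between 2c and 8c with its 95% interval, for WT (blue circles) and matPlag1KO (orange squares), scaled to spike-in RNA (filled) or with TMM factors (open). Bcl2l10 lies below 0 and Mcl1 above 0 in all 8 estimates each, whereas Bax in matPlag1KO from MII to 2c moves from -1.46 to 0.21 with the scale.

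Of the pore formers, Bax (chr7:52717065-52722268, mm9) dipped at 2c. In WT it was found in 16 of 16 oocytes (73 counts, median 11.2 CPM; 5.44 ± 3.93 CPM in pool A and 15.8 ± 6.77 CPM in pool B, SD, n = 8 each), in 3 of 11 embryos at 2c (7 counts) and in 15 of 15 at 8c (238 counts, median 35.8 CPM). In matPlag1KO it had 63 counts in 13 of 14 oocytes, 17 in 6 of 11 at 2c and 101 in 11 of 11 at 8c. From MII to 2c it fell by 2.52 ± 0.60 in WT (adjusted p = 0.000196) and 1.46 ± 0.55 in matPlag1KO (adjusted p = 0.0172) per spike-in RNA, whereas on the TMM scale the values were -1.42 (adjusted p = 0.0546) and 0.21 (adjusted p = 0.795). In matPlag1KO the fall of 1.46 equalled the median of all genes, -1.42, to within its SE, and its call was lost in either pool alone (adjusted p = 0.123 and 0.110). Toward 8c Bax rose by 4.10 ± 0.61 in WT and 2.56 ± 0.57 in matPlag1KO (adjusted p = 2.59e-08 and 0.000125; TMM scale 3.30 and 1.82). Scaled to spike-in RNA, each WT 8c embryo was above every WT 2c embryo. The rise in matPlag1KO did not pass in pool A alone (2.12, adjusted p = 0.0587).

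Bak1 (chr17:27156757-27165571, mm9; it overlaps Ggnbp1 on the other strand) was hardly detected. It had 5, 1 and 2 counts at the 3 stages in WT and 2, 9 and 1 in matPlag1KO. The 9 counts at 2c came from 3 of 11 libraries at up to 23.9 CPM. They gave calls of a rise from MII (1.90 ± 0.75, adjusted p = 0.0218) and a fall to 8c (-2.21 ± 0.82, adjusted p = 0.0207), both of which were lost in pool A alone (adjusted p = 0.258 and 0.196). The ratio of the pooled counts for the rise was 5.89 with a counting interval of 1.22 to 56.

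Of the BH3-only members, Bid (chr6:120843137-120866838, mm9) had 13 counts over the WT oocytes and 3 over the matPlag1KO oocytes. At 2c it was found in 10 of 11 WT libraries (median 13.9 CPM) and 7 of 11 matPlag1KO libraries (median 7.70 CPM), and at 8c in 15 of 15 and 10 of 11 (medians 14.3 and 16.2 CPM). It rose from MII to 2c by 2.10 ± 0.63 in WT and 3.28 ± 0.73 in matPlag1KO (adjusted p = 0.00257 and 7.65e-05; TMM scale 3.47 and 4.70), and changes from 2c to 8c did not pass (0.73 and 1.06, adjusted p = 0.304 and 0.158). The pools were unlike: WT 2c embryos had a mean of 7.51 ± 5.93 CPM (SD, n = 4) in pool A and 25.2 ± 11.7 CPM (n = 7) in pool B, and the rise in WT was 0.75 in pool A alone (adjusted p = 0.557). In matPlag1KO the order was opposite, with 20.3 ± 20.5 CPM (n = 5) in pool A and 7.66 ± 8.43 CPM (n = 6) in pool B.

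Bad (chr19:7016351-7026395, mm9; it overlaps Gpr137 on the other strand), whose product is kept inactive by growth factor signals, rose late. Per spike-in RNA the difference from MII to 2c was -1.57 in WT (adjusted p = 0.0772) and -1.44 in matPlag1KO (adjusted p = 0.0868), near the medians of all genes (-1.46 and -1.42). On the CPM scale the ratios of pooled counts were 0.874 in WT and 1.22 in matPlag1KO. Their counting intervals (0.220 to 2.56 and 0.447 to 2.86) held 1. The fall in WT was called in pool A alone (-3.96, adjusted p = 0.0291), where the 4 WT 2c libraries held 0 counts of Bad. It was also called without exclusion of libraries (-1.65, adjusted p = 0.0474). Of 16 WT oocytes 5 held Bad and of 11 WT 2c embryos 2, with 23 and 4 counts, and in matPlag1KO 5 of 14 and 4 of 11, with 27 and 7. At 8c all 15 WT and all 11 matPlag1KO embryos held it, at 42.0 to 141 CPM (median 69.0) and 41.2 to 106 CPM (median 76.6). No 8c library overlapped the range at 2c or at MII of its genotype. The rise from 2c to 8c was 5.72 ± 0.79 in WT and 5.25 ± 0.76 in matPlag1KO (adjusted p = 2.42e-09 and 1.22e-08; TMM scale 5.05 and 4.59). Gpr137 instead went from 751 counts in WT oocytes to 19 at 2c and 85 at 8c, while Bad went from 23 to 4 and 465.

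Bcl2l11 (chr2:127951774-127988283, mm9), which encodes BIM, was the BH3-only member found most often, in 14 of 16 WT and 13 of 14 matPlag1KO oocytes and in every embryo. WT and matPlag1KO medians were 18.2 and 16.5 CPM in oocytes, 82.0 and 63.8 CPM at 2c, and 52.1 and 83.2 CPM at 8c. Per spike-in RNA the difference from MII to 2c was 0.95 ± 0.50 in WT and -0.26 ± 0.53 in matPlag1KO (adjusted p = 0.0904 and 0.682), but on the TMM scale it rose in both (2.79 and 1.50, adjusted p = 1.49e-08 and 0.00200). In matPlag1KO embryos the level then rose to 8c by 1.52 ± 0.56 (adjusted p = 0.0195), which was not called on the TMM scale (0.80, adjusted p = 0.123) or in pool A alone (1.02, adjusted p = 0.346). In WT the difference was -0.09 ± 0.51 (adjusted p = 0.912), and on the TMM scale -1.07 (adjusted p = 0.0219).

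Bbc3 (chr7:16894932-16903683, mm9), which encodes PUMA and is a target of p53, had totals of 1, 5 and 11 counts at the 3 stages in WT and 0, 4 and 3 in matPlag1KO. The model called it higher at 2c than at MII in both (1.78 and 1.97, adjusted p = 0.0410 and 0.0172). In WT the call was lost with pool as a term (adjusted p = 0.0520), without exclusion of libraries (adjusted p = 0.0516), in pool A alone (adjusted p = 1.00) and in pool B alone (adjusted p = 0.152), and in matPlag1KO in either pool alone (adjusted p = 0.263 and 0.0694). Per spike-in count the ratio in WT was 7.73 with a counting interval of 0.865 to 365. In matPlag1KO, with 4 against 0 counts, the interval started at 0.864, so neither interval excluded a ratio of 1. On the CPM scale both intervals did, at 2.81 to 1189 in WT and from 3.09 in matPlag1KO.

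In counts, 3 of the 10 members were called higher and 4 lower at 2c than at MII in WT, where 14.1% of all genes were higher and 51.3% lower, and in matPlag1KO 4 and 3 (13.5% and 50.3% of all genes). For 8c against 2c, 3 were higher and 1 lower in WT (31.9% and 16.2%), and 4 and 3 in matPlag1KO (29.1% and 19.5%). For 8c against MII, 5 were higher and 2 lower in WT (27.1% and 43.6%), and 6 and 3 in matPlag1KO (24.1% and 45.2%). The median log2 fold change of the members between MII and 8c was 1.22 in WT and 1.18 in matPlag1KO, where that of all genes was -0.67 and -0.95.

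On the TMM scale the split changed. At 2c against MII, 4 members were higher and 2 lower in WT (27.5% and 23.1% of all genes) and 5 and 2 in matPlag1KO (29.1% and 19.3%). At 8c against 2c, 3 were higher and 3 lower in WT (21.0% and 28.9%) and again 3 and 3 in matPlag1KO (21.2% and 30.3%). At 8c against MII, 6 were higher and 2 lower in WT (36.0% and 36.3%) and likewise in matPlag1KO (34.6% and 34.0%). On both scales and in both genotypes, Bcl2l10 and Bcl2l1 were lower and Mcl1, Bid and Bbc3 higher at 2c than at MII, and Bcl2l10 was lower and Mcl1, Bax and Bad higher at 8c than at 2c. Those of Bbc3 rested on at most 5 counts in a group and, per spike-in RNA, were lost in either pool alone. Also lost in pool A alone were Bid at 2c in WT, Mcl1 at 8c against 2c in both genotypes and Bax at 8c against 2c in matPlag1KO. With median-ratio factors, Bcl2l1 at 2c in matPlag1KO was not called.

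Ratios of counts between 2 members of a library need no scaling between stages, and 3 ratios, chosen after their values were seen, are given as a description. Mcl1 was at 0 in 14 of 16 WT and 11 of 14 matPlag1KO oocytes, and Bad in 11 and 9 of these oocytes and in 9 of 11 and 7 of 11 embryos at 2c, so the medians of those groups are set by the added 0.5 and the depth and do not measure the ratio. The log2 ratio of Bcl2l10 to Mcl1 counts (0.5 added to each) had WT and matPlag1KO medians of 12.3 and 12.9 at MII, 4.97 and 6.50 at 2c, and -3.27 and -1.38 at 8c. The ranges at 2c and 8c, where at most 1 library a group was at 0 for Mcl1, did not overlap in this ratio. The ratio of Bcl2l10 to Bad went from 12.1 and 12.5 at MII to 7.96 and 8.31 at 2c and -2.62 and -2.07 at 8c, and Bad had more counts than Bcl2l10 in all 15 WT 8c embryos and in 10 of 11 of matPlag1KO. That of Bcl2l1 to Bcl2l11, the pair of BCL-XL and BIM, went from 4.61 and 4.71 to 0.58 and 1.89 and then to 0.39 and -0.77, with overlap between neighbouring stages.

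**Figure D3:**
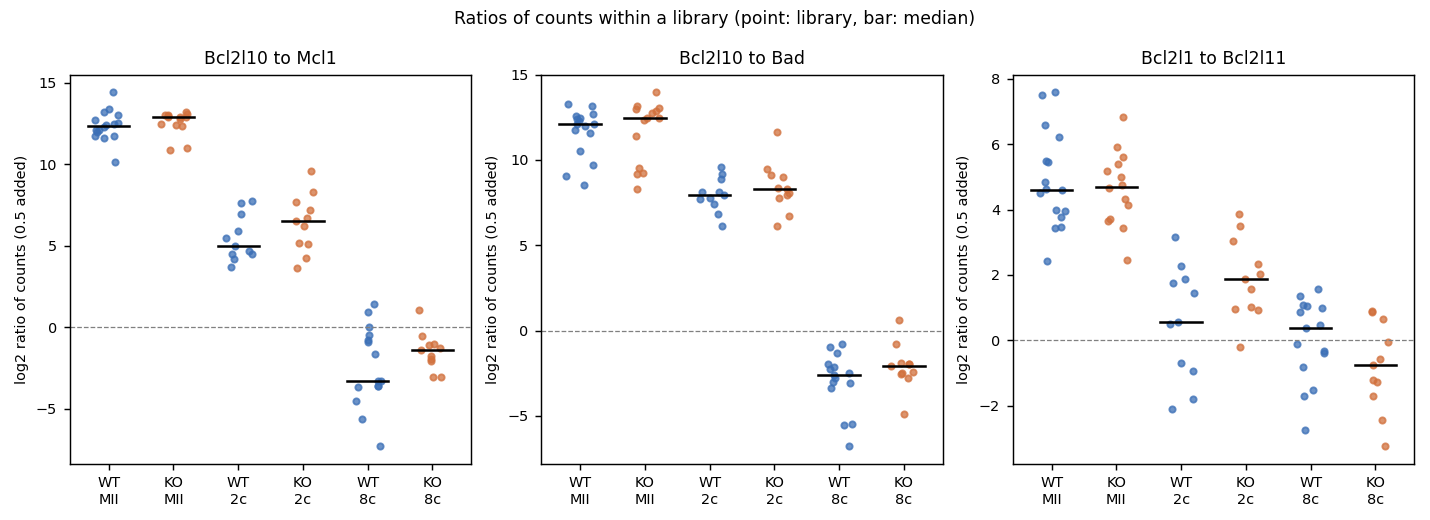
Log2 ratio of the counts of 2 members within each library (0.5 added to each count), by stage and genotype (blue, WT, and orange, matPlag1KO; bar, median). The median of Bcl2l10 to Mcl1 went from 12.3 at MII to 4.97 at 2c and -3.27 at 8c in WT, and that of Bcl2l1 to Bcl2l11 from 4.61 to 0.58 and 0.39. Mcl1 was at 0 in 14 of 16 WT oocytes, and Bad in most oocytes and 2c embryos, whose points are set by the added 0.5 and the depth.

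The course of Bcl2l10 across the 78 libraries was most like that of Trim60, Btg4, Trim61, Ggct and Obox5 (Pearson r of log2(CPM + 1) of 0.966, 0.966, 0.963, 0.963 and 0.961, among 6211 genes with a mean of at least 20 CPM). For Mcl1 it was most like Irak2, D7Ertd143e, Klf5, Uqcc3 and Rgs11 (r of 0.915, 0.913, 0.913, 0.911 and 0.911). The points share stage, pool and depth, so the values describe the shared course over stages only.

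The comparison of genotypes asked whether the lack of maternal Plag1 changed any member. No member was called at any stage (edgeR on the TMM scale, adjusted p under 0.05 over all genes): 0 of 10 at MII, where 0.781% of all genes were called, 0 of 10 at 2c (4.92% of all) and 0 of 10 at 8c (1.74% of all). DESeq2 called 0 as well at each stage, of the 7 members to which it gave an adjusted p. At an unadjusted p under 0.05 there was 1 member at each stage: Bid at MII (-1.66 ± 0.66, adjusted p = 0.306), Bak1 at 2c (2.66 ± 0.99, adjusted p = 0.116) and Bcl2l11 at 8c (1.01 ± 0.40, adjusted p = 0.196). The median log2 fold change of the members was -0.19, 0.50 and -0.10 at the 3 stages, where that over all genes was 0, 0.12 and 0. Scaled to spike-in RNA, the medians over all genes were 0.30, 0.28 and 0, and again no member was called.

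The intervals show what these depths could have hidden. For Bcl2l1 the 95% interval of the difference ran from -0.53 to 0.60 at MII, -0.14 to 1.22 at 2c and -0.70 to 0.59 at 8c. For Bcl2l10 it ran from -0.90 to 0.40, -0.05 to 1.48 and -0.17 to 1.52. Mcl1 could be bounded at 2c (-1.27 to 0.61) and 8c (-0.93 to 0.57), and Bad at 8c (-0.86 to 0.86). Bcl2, Bak1 and Bbc3 had at most 13 counts in a group, and their intervals were wide, such as 0.19 to 4.82 for Bcl2 at 2c. That interval leaves out 0 although the unadjusted p of Bcl2 was not under 0.05, so interval and test do not match at so few counts. For its 3 against 0 counts, the counting interval of the ratio started at 0.353 on the CPM scale, which does not exclude a ratio of 1.

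Among the members with enough counts, Bcl2l10 at 2c differed by 0.71 ± 0.39 (adjusted p = 0.280). Among matPlag1KO embryos, 2 of 11 (libraries 12 and 13, at 6387 and 4267 CPM) lay above every WT embryo, and both came from pool B. These 2 libraries ranked 2 and 7 of 22 in the oocyte markers. WT library 11 ranked 3 in both, whereas matPlag1KO library 8, which ranked 1 in the markers, ranked 12 in Bcl2l10. A relation between the level of Bcl2l10 and the markers at 2c was not tested. Without library 12 the difference was 0.31 (adjusted p = 0.701), and without library 13 it was 0.52 (adjusted p = 0.490). In pool A alone it was -0.23 and in pool B alone 1.16 (adjusted p = 0.975 and 0.125).

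Bcl2l11 at 8c was 22.2 to 135 CPM (median 52.1) in WT and 41.8 to 409 CPM (median 83.2) in matPlag1KO, with 3 of 11 matPlag1KO embryos above every WT embryo. Pool A had means of 45.9 ± 15.1 CPM (SD, n = 7) and 72.9 ± 27.3 CPM (n = 6), and pool B of 70.0 ± 30.6 CPM (n = 8) and 175 ± 137 CPM (n = 5). With only the 8c libraries in the model the difference of 1.07 was called (adjusted p = 0.0359), and without matPlag1KO library 13 it was 0.60 (adjusted p = 0.561). In pool A alone it was 0.61 and in pool B alone 1.31 (adjusted p = 0.864 and 0.276). At 2c it pointed the other way, at -0.86 ± 0.45 (adjusted p = 0.257). The difference of differences between 2c and 8c was -1.87 ± 0.60 (unadjusted p = 0.00243, adjusted p = 0.0712), and no member passed such a test, either between 2c and 8c (2.30% of all genes called, 1 member at an unadjusted p under 0.05) or between 2c and MII (3.31% of all genes, 2 members).

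At MII some estimates had opposite signs in the 2 pools. That of Bcl2l11 was -0.47 in pool A and 1.08 in pool B (adjusted p = 0.801 and 0.283), and that of Bax was 0.28 and -1.22 (adjusted p = 0.960 and 0.303). Bid at MII rested on 13 and 3 counts. In pool A alone the difference was -0.63 (adjusted p = 0.868) and in pool B alone -2.99 (adjusted p = 0.0597). Bak1 at 2c rested on 1 and 9 counts, and without WT library 2 the difference was 4.10 and called (adjusted p = 0.0409).

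**Figure D4:**
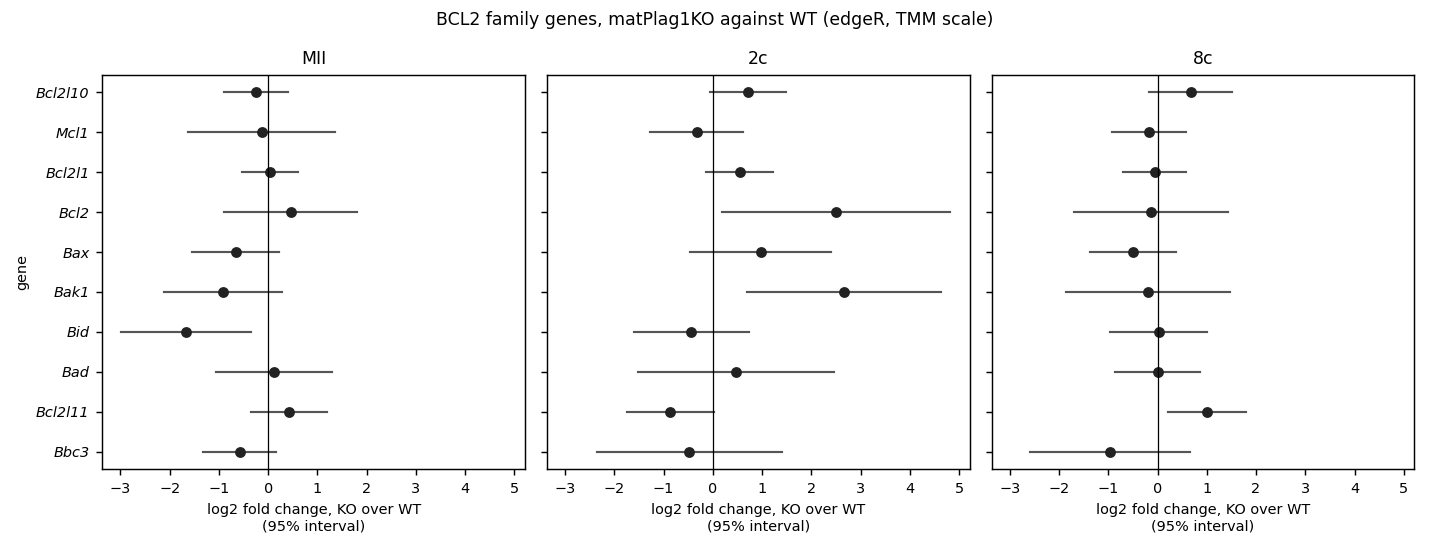
Log2 fold change of matPlag1KO over WT (x axis) for each gene at MII, 2c and 8c, with its 95% interval (edgeR, TMM scale). No gene passed an adjusted p of 0.05, and the estimates furthest from 0 were those of Bak1 (2.66) and Bcl2 (2.51) at 2c, which rest on 9 and 3 counts in matPlag1KO. The interval of Bcl2 at 2c leaves out 0 although its unadjusted p was not under 0.05.

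Genes that act beside the members were followed as 4 lists, with stage values for WT. Their counts are to be read against all genes, of which 14.1% were higher and 51.3% lower at 2c than at MII (27.5% and 23.1% on the TMM scale, median change -1.46 per spike-in RNA) and 31.9% were higher and 16.2% lower at 8c than at 2c (21.0% and 28.9%, median 0.53). Of 16 other BCL2 family genes, 11 were tested: 5 were higher and 3 lower at 2c than at MII (7 and 1 on the TMM scale; median change 0.05), and 5 were higher and 0 lower at 8c than at 2c (4 and 3 on the TMM scale; median 1.06). Bcl2l14 (5.32 ± 0.56) and Bok (3.70 ± 0.72), a further pore former, had the highest values from MII to 2c and Bik (-5.35 ± 0.67) and Bnip3l (-1.32 ± 0.40) the lowest, of which Bnip3l was not called on the TMM scale (0.27). At 8c against 2c Bnip3 (3.57 ± 0.39) and Bcl2l14 (3.04 ± 0.44) were highest and Bcl2l2 (1.61 ± 0.64) and Bnip3l (1.90 ± 0.41) were lowest among those called, of which Bcl2l2 was not called on the TMM scale. Between the genotypes Bik was lower in matPlag1KO oocytes (-1.98 ± 0.41, adjusted p = 0.00199), and Bcl2l14 and Bnip3l were lower at 2c (-1.63 ± 0.40 and -1.53 ± 0.37, adjusted p = 0.00854 and 0.00674).

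Of 13 caspase and apoptosome genes, 10 were tested: 0 were higher and 6 lower at 2c than at MII, close to the share of all genes (3 and 3 on the TMM scale, median -1.74), and 4 were higher and 1 lower at 8c than at 2c (4 and 1 on the TMM scale, median 1.204). The initiators Casp8 and Casp9 fell most from MII to 2c (-6.36 ± 0.71 and -4.50 ± 1.08). Casp2 (-2.53 ± 0.75) and Apaf1, which recruits Casp9 (-0.94 ± 0.42), fell least among those called, and neither was called on the TMM scale (-0.92 and 0.50). By 8c Casp6 (5.70 ± 0.63), Casp9 (3.90 ± 1.08) and Cycs (1.69 ± 0.38) rose and Apaf1 fell (-1.17 ± 0.43). Apaf1 was higher in matPlag1KO at 8c (1.67 ± 0.39, adjusted p = 0.0112). Of this difference and those of Bik, Bcl2l14 and Bnip3l between genotypes, only that of Apaf1 also passed when scaled to spike-in RNA (1.70, adjusted p = 0.0313).

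Of 12 inhibitor of apoptosis genes and their antagonists, 9 were tested: 0 were higher and 5 lower at 2c than at MII (2 and 2 on the TMM scale, median -1.43), and 4 were higher and 1 lower at 8c than at 2c (4 and 2 on the TMM scale, median 0.96). Naip1 (-4.74 ± 1.05), which has close paralogs that reads may not separate, and Birc3 (-3.08 ± 0.44) fell most from MII to 2c, and Birc5, or survivin, (-1.69 ± 0.28) and Birc6 (-1.43 ± 0.55) least, neither called on the TMM scale (-0.50 and 0.74). Xiap (2.89 ± 0.64), Birc6 (2.42 ± 0.57) and Diablo, an antagonist of XIAP (1.84 ± 0.43), rose from 2c to 8c, and Birc3 fell (-1.69 ± 0.41). No gene of this list was called between the genotypes at a stage. Of 9 genes of the p53 axis, all tested, 1 was higher and 6 lower at 2c than at MII (4 and 3 on the TMM scale, median -1.42), and 3 were higher and 4 lower at 8c than at 2c (3 and 6 on the TMM scale, median -1.22). Trp53 (-4.23 ± 0.48) and Trp63 (-4.64 ± 0.64) fell from MII to 2c and Sesn2 rose (4.06 ± 0.55), while Mdm4, which restrains p53, was -0.87 ± 0.31 on the spike-in scale but 0.56 and called higher on the TMM scale. By 8c the p53 targets Ccng1 (3.89 ± 0.64) and Cdkn1a (3.84 ± 0.57) rose, and Mdm4 (-4.20 ± 0.33) and Trp73 (-3.07 ± 0.77) fell. Mdm4 was the single gene of this list called between the genotypes on the TMM scale, higher in matPlag1KO at 8c (0.90 ± 0.25, adjusted p = 0.0395), and it was not called on the spike-in scale.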

How the data were processed

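Single MII oocytes, 2c and 8c embryos were sequenced at the 5′ ends of their transcripts by the authors, with ERCC spike-in RNA, in 2 pools. Per the methods and labels they aligned reads to mm9 with TopHat and counted genes with HOMER; versions and the strand setting are not given in the sources used here. The authors deposited raw counts of 24422 genes and 92 spike-in RNAs per library. Bcl2l1, Bak1 and Bad overlap a gene on the other strand, and without a strand setting such reads cannot be told apart.

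From these, libraries with a median CPM under 1 (12 of 90) were left out. Genes reaching 1 CPM in 5 or more kept libraries were tested with the quasi-likelihood test of edgeR 4.0.16 (R 4.3.3), all 6 groups in 1 fit, with Benjamini-Hochberg adjusted p under 0.05 as a call. Genotypes were compared with TMM factors and stages with spike-in totals as library sizes. CPM were computed on TMM library sizes. The SE is the absolute log2 fold change divided by the root of the F statistic. Intervals are 95%, and counting intervals cover counting error only.

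The named genes are the members, Plag1, genes of the 4 lists called between genotypes or among the 2 highest and 2 lowest called between stages in WT, and the 5 genes most like Bcl2l10 and Mcl1. A gene of the lists is not reported here and was left out of the counts. The members and lists were chosen with earlier results of these data known. The labels number the wells of both pools, and oocytes of the same well hold opposite genotypes; the deviations of same-well oocytes from their group means correlated above 0.1 in 12 of 14 pairs, and in 14 of 14 with pool means removed too. The labels name no shared source for a well and not every pair passed on group means, so the well was fitted as a block only as an alternative. Within each group no library was a copy of another (lowest chi-square per degree of freedom 3.54), and libraries of different groups were not compared. Alternatives were other scaling, DESeq2 1.42.0, other filters, no exclusion of libraries, pool as a term, each pool alone, only the groups compared, the well as a block and leaving out each library. On simulated data, of 200 genes changed 4-fold between the genotypes at 2c among 16268, 138 were recovered and 8 others called, and from MII to 2c in WT, among 16287, 160 and 4. The changed genes were drawn from those above a minimum expected count, and other genes had the same mean in all groups. Simulated spike-in totals followed library size. The recovery therefore does not cover genes with few counts, such as Bcl2, Bak1 and Bbc3, or the noise of the real spike-in RNA.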

Additional observations from a re-analysis of the deposited data

Results flagged for a closer look

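No member of the family was called for a genotype difference that changed between stages, but some of the genes named beside them were in edgeR's interaction test (log2 difference of differences, TMM scale, in 16 WT and 14 matPlag1KO libraries at MII, 11 and 11 at 2c and 15 and 11 at 8c). For Plag1 the genotype difference at 2c exceeded that at MII by 11.2 (adjusted p = 6.00e-13) and that at 8c by 5.66 (adjusted p = 0.0151). The difference of Bik was higher at 2c than at MII by 3.47 (adjusted p = 0.00266). That of Bnip3l changed between MII and 2c by -1.78 (adjusted p = 0.0183), which was not called when scaled to spike-in RNA (-1.89, adjusted p = 0.0507). That of Apaf1 at 2c differed from that at 8c by -2.39 (adjusted p = 0.0155), and this too was lost with spike-in scaling (-2.22, adjusted p = 0.0713). The calls of Plag1 and Bik held with spike-in scaling (adjusted p = 8.68e-11, 0.0270 and 0.0170). Of the other genes of the lists, Bcl2l15 was called between 2c and 8c (-4.36, adjusted p = 0.0453), on the TMM scale only; it was named after its values were seen.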

How the results depend on the processing

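Of 562 values of the members between stages under the alternatives, 508 kept their side of the threshold and their direction where called, 38 lost and 12 gained a call, and 4 were reversed. These 4 were Bax from MII to 2c in matPlag1KO with TMM (0.21) and median-ratio factors (0.49), and Bcl2l11 in the same comparison (1.50 and 1.82); the median over all genes in that comparison was 0.14 with TMM and -1.42 with spike-in scaling. In matPlag1KO, pool A alone called 4 members between MII and 2c and 2 between 2c and 8c, and pool B alone 4 between MII and 2c, in place of 7 each, with fewer libraries. Of 298 values between genotypes, 1 gained a call: with only the 8c libraries in the model 1 of 8 members tested was called, Bcl2l11. Of 780 values with 1 library left out, 1 gained a call, Bak1 at 2c without WT library 2 (4.10, adjusted p = 0.0409). The members called ranged from 0 to 1 at 2c and were 0 at MII and 8c. Uncalled values changed sign in 52 of the 780, 25 of the 298 and 17 of the 562, and in 1 of 40 values of the difference of differences, which gave no call under any alternative.

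Fitting a replicate block for the well, with pool as a term, called 0 members at MII (of 7 tested) and 792 of all genes, against 42 in the same paired libraries without the block (an alternative added after the data were seen) and 129 in all libraries. At 2c, where 2 pairs held opposite genotypes, the block called 0 members and 0 genes. The block changed no call of a member. Same-well oocytes correlated at -0.0562 to 0.759 in their deviations from group means, and above 0.1 in 14 of 14 pairs when pool means were removed too. At 2c the pairs above 0.1 were 3 of 8 and 5 of 8. Over all genes at 2c, spike-in scaling gave 285 calls in place of 812 and pool A alone 0, and leaving out 1 library gave 443 to 1127. Members with few counts (Bcl2, Bak1, Bbc3) are limited by depth.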
